A study of Homo sapiens with 7 samples.

Results

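The compact NuMA regions shared by both antibodies were 9549 of the 14240 peaks (67.1%) that an antibody to the C terminus of NuMA gave in HCT116 cells. They were chosen by measured values of these libraries: a C-terminal peak on chromosomes 1 to 22, X or Y, narrower than 2000 bp, that overlapped a peak of an antibody to the N terminus by at least 1 bp. They covered 8423 kb, or 63.4% of the length under C-terminal peaks. Peak width, the presence of an N-terminal peak and the enrichment that led to both calls took part in that choice, so these are described here without a test. The lists of histone H1 peaks took no part in it.

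NuMA is a large coiled-coil protein of the nucleus that gathers at the spindle poles in mitosis and is counted among the structural proteins of the nuclear interior. Histone H1, the linker histone, binds the nucleosome where DNA enters and leaves it and helps to compact the nucleosome fibre. In CUT&Tag an antibody brings the Tn5 transposase to its target on chromatin, where the enzyme tags the nearby DNA, and a peak is a place where tagged fragments exceed the local background.

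The study made 7 CUT&Tag libraries, each from 10000 cells of HCT116, a long-established line of human colon cancer cells, and peak lists of 6 libraries were used. Wild-type cells gave 1 library for each NuMA antibody. Histone H1 was profiled in 2 wild-type libraries, titled NC, and in 2 NuMA-depleted libraries, titled AID, and the labels spelled out neither title. The immunoglobulin G library of wild-type cells was not analysed here, as no list came with it. How far NuMA was depleted, and whether the AID and NC cells also differed in clone or treatment, could not be read from the lists. The labels did not say whether the libraries of a group came from separate cultures, so every p-value measures the spread between libraries alone, and that spread may be technical. With 1 library per NuMA antibody, no value of the NuMA peaks has a replicate.

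The 4 H1 lists differed in length, and the 2 H1 groups differed in depth. Wild-type replicates 1 and 2 held 4552 and 5553 H1 peaks, and NuMA-depleted replicates 1 and 2 held 2616 and 1480. The average background per kb, which was recovered from the peak values and is proportional to depth, was 58.6% as high in the depleted as in the wild-type H1 libraries. Within a group it was nearly equal, 3.62 fragments per kb in both wild-type and 2.12 in both depleted libraries. Genotype and depth therefore cannot be told apart in any comparison of the 2 H1 groups.

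The compact shared regions had a median width of 767 bp (interquartile range 584 to 1094) and ranged from 439 to 1998 bp. The narrowest were chr1:167904860-167905298, chr16:88859409-88859847 and chr19:18209927-18210365 on hg19, each 439 bp wide, with C-terminal folds of 4.03, 3.38 and 4.18. Here and below a fold is the authors' own enrichment of the peak over its background. Whether the background of the NuMA peaks came from their own library or from the immunoglobulin G library is not given in the sources used here. Just inside the width limit lay chrX:153606394-153608391, 1998 bp wide, with a C-terminal fold of 5.59 and an N-terminal fold of 5.56. Next came chr16:2954212-2956208 and chr17:76354004-76356000, both 1997 bp wide, with C-terminal folds of 5.61 and 5.20 and N-terminal folds of 8.17 and 6.69. Just outside it lay chr1:161426139-161428138, chr16:29476615-29478614 and chr19:39893035-39895034, each 2000 bp wide, with C-terminal folds of 1.66, 4.42 and 4.57 and N-terminal folds of 3.23, 5.76 and 4.32. The C-terminal folds of 5 of these 6 regions fell inside the interquartile range of the compact shared regions, 3.66 to 7.01.

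The other C-terminal peaks served as comparison sets. The broad shared regions, at least 2000 bp wide with an N-terminal peak, numbered 849. A further 3829 C-terminal peaks under 2000 bp, with a median width of 564 bp, had no N-terminal peak, and 13 were broad without one. An N-terminal peak was present at 10398 of the 14240 C-terminal peaks (73%), a share that follows from the rule and is not read further.

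Most compact shared regions matched 1 N-terminal peak with 1 C-terminal peak. Of the 9549 regions, 9489 overlapped 1 N-terminal peak and 60 overlapped 2. The regions shared 9178 different N-terminal peaks, of which 8786 lay over 1 region, 361 over 2, 23 over 3 and 8 over 4. The N-terminal peak was usually the wider one: 6814 regions (71.4%) were narrower than their N-terminal peak, and the median ratio of N-terminal to C-terminal width was 1.19. The N-terminal peak enclosed the whole region at 4473 sites (46.8%), while 1086 regions (11.4%) enclosed their N-terminal peak. At 1301 regions (13.6%) the N-terminal peak itself was 2000 bp or wider, so a region could be compact for the C-terminal antibody and broad for the N-terminal one.

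The summits of the 2 antibodies fell close together. The median distance between the C-terminal and the N-terminal summit was 66 bp (interquartile range 20 to 234). The summits lay within 100 bp of each other at 5679 regions (59.5%, 95% Wilson interval 58.5 to 60.5), within 10 bp at 16.7% and on the same base at 266 regions. Within 500 bp lay 84.8% and within 1000 bp 93.0%. The displacement had no preferred side: the N-terminal summit lay at the higher coordinate in 4599 regions and at the lower in 4684, with a median signed distance of 0 bp. It fell outside the C-terminal region in 1314 regions (13.8%), and the largest distance was 9546 bp. In the broad shared regions the median distance was 166 bp, and the summits lay within 100 bp at 41.9% (38.7 to 45.3). The 2 sets were divided by width, which limits how far apart summits inside a region can lie. As a percentage of the region's width the order was the opposite, with a median of 8.41% in compact and 6.23% in broad regions. The N-terminal summit fell outside the region at 4.95% of broad regions.

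**Figure D1:**
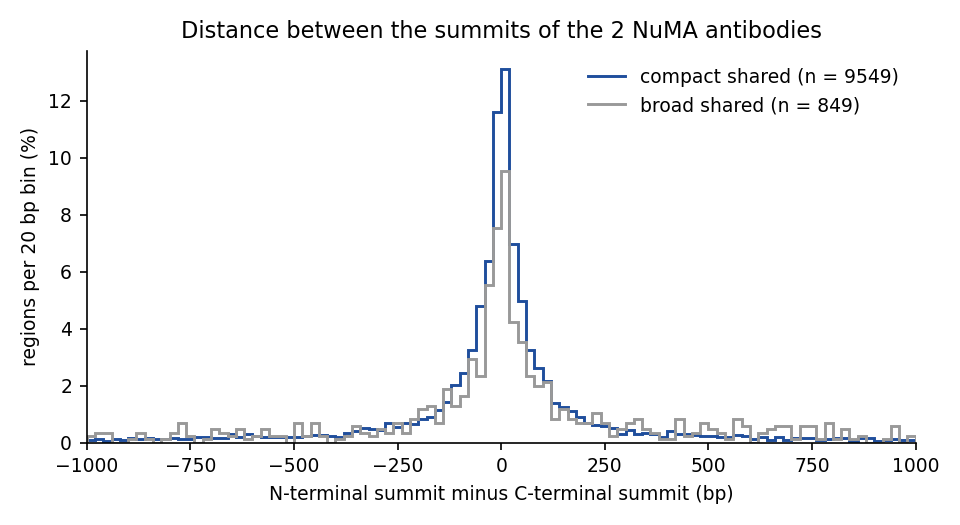
Distance from the C-terminal to the N-terminal summit in bp (x axis) against the percentage of regions in each 20 bp bin (y axis), for 9549 compact (blue) and 849 broad (grey) shared regions. Both curves peak at 0, and the compact regions have the larger share within 100 bp, 59.5% against 41.9%, in sets that were divided by width.

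Regions of higher enrichment had closer summits. Ordered by the C-terminal fold, the quartiles had median distances of 125, 88, 55 and 35 bp from the lowest to the highest. Ordered by the lower of the 2 folds, 40.9% of the regions in the lowest quartile and 80.8% in the highest had summits within 100 bp. Narrower regions also had closer summits, with a median of 50 bp for widths of 400 to 600 bp and 120.5 bp for widths of 1500 to 2000 bp. The median C-terminal fold was 4.91 and 4.88 in those width classes. The width of the N-terminal peak moved most with the distance, from 33 bp in the quartile of narrowest to 290 bp in that of widest N-terminal peaks. The 823 regions that shared an N-terminal peak with another region had a median distance of 899 bp, and the others one of 58 bp. An N-terminal peak has 1 summit, which can match only 1 of the regions under it.

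The folds of the 2 antibodies rose and fell together across regions. The C-terminal fold had a median of 4.95 (interquartile range 3.66 to 7.01, from 1.52 to 28.8), and the N-terminal fold had a median of 5.94 (4.54 to 7.86, from 1.51 to 34.9). The median count of fragments recovered at the C-terminal summit was 32.0, against a median local background of 5.62 fragments. Across the 9549 regions Pearson's r of the log2 folds was 0.72 and Spearman's rho was 0.71, and across the 849 broad shared regions they were 0.73 and 0.72. All points come from the same 2 libraries and share their local sequence, so these values describe the regions and carry no p. The folds of both antibodies may also share 1 background library, and its part in these values was not tested. The N-terminal fold was the larger number in 6834 regions (71.6%), with a median log2 ratio of 0.27, and as folds of different lists this shows no difference in binding. Both folds were at least 10 in 452 regions (4.73%) and at least 5 in 4244 (44.4%), and both were below 3 in 178 (1.86%). Of the 955 regions of highest fold for one antibody, 461 (48.3%) were among the 955 of highest fold for the other.

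**Figure D2:**
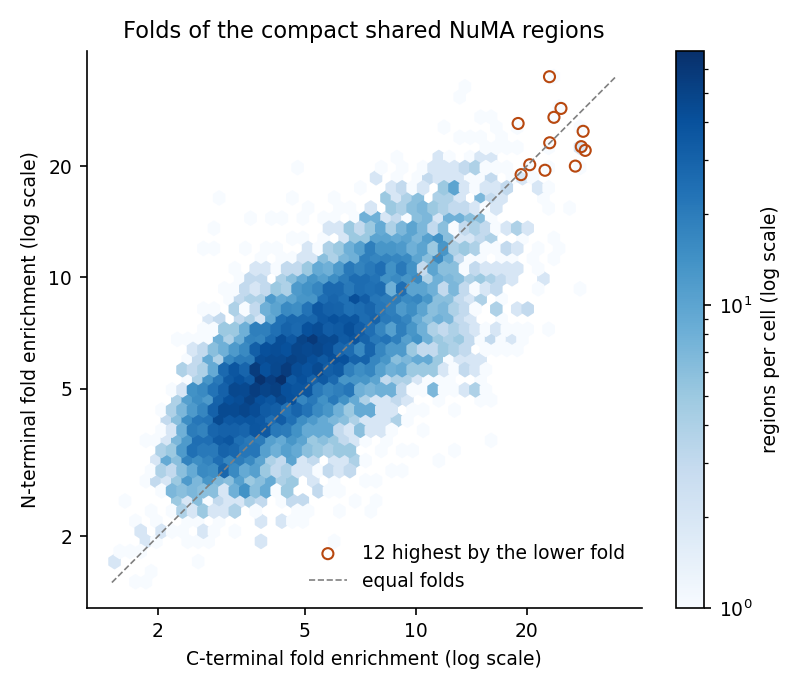
C-terminal fold (x axis) against N-terminal fold (y axis) of the 9549 compact shared regions, both on log scales, with the number of regions per cell as colour (log scale) and the 12 regions of highest lower fold as circles. The folds go up together, with a Spearman's rho of 0.71, most of the cloud (71.6% of regions) lies above the dashed line of equal folds, and both folds of the 12 circled regions are above 18.

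The highest enrichment in both libraries at once was at chr19:1183282-1184211, with a C-terminal fold of 28.4, an N-terminal fold of 24.8 and summits 90 bp apart. On chromosome 15, chr15:90753591-90754801 had folds of 24.8 and 28.6, and chr15:66161391-66162532 had 23.05 and 34.9, the highest N-terminal fold of any compact shared region, with summits 2 bp apart. The region chr1:6445289-6446418 had folds of 23.7 and 27.1, also with summits 2 bp apart. The highest C-terminal fold, 28.8, was at chr9:130716892-130717775, where the N-terminal fold was 22.05 and wild-type H1 replicate 1 had a peak of fold 6.48. The region chr3:50282615-50284283 had folds of 27.1 and 19.99 and, alone among the 12 highest, summits more than 100 bp apart (636 bp). It carried H1 peaks of fold 5.01 in wild-type replicate 2 and 6.51 in depleted replicate 1. The remaining 6 were chr17:19099489-19100350, chr19:46195309-46196498, chr19:6744534-6746331, chr22:37726759-37727634, chr1:155231449-155232300 and chr6:30594356-30595141. Their C-terminal folds ranged from 18.9 to 28.1, their N-terminal folds from 18.96 to 26.1, and none had an H1 call.

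A few regions ranked far apart for the 2 antibodies. The largest rank gaps in favour of the N terminus were at chr17:7308235-7308936, chr8:21967422-21967867 and chr19:47729880-47730985. Their C-terminal folds were 2.84, 2.69 and 2.98, their N-terminal folds 13.7, 12.1 and 16.7, and their summits lay 1034, 1999 and 1791 bp apart. In favour of the C terminus the largest gaps were at chr19:50295925-50296983, chr21:45143396-45144597 and chr9:132370752-132372347. There the C-terminal folds were 11.6, 12.5 and 16.1, the N-terminal folds 3.15, 3.33 and 3.66, and the distances 1147, 275 and 1046 bp. At 5 of these 6 regions the summits were over 1000 bp apart, so the paired peaks had their maxima at different places.

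Compact shared regions were clustered along the chromosomes. The distance from one region's summit to the next had a median of 13.4 kb (interquartile range 4.46 to 66.2 kb) and ran from 662 bp to 44.3 Mb. Another compact shared region lay within 2 kb of 17.05% of them, within 10 kb of 5836 (61.1%, Wilson interval 60.1 to 62.1) and within 100 kb of 88.9%. Linked by steps of at most 10 kb, these 5836 regions formed 1676 chains, of which 330 had at least 5 regions and together held 2424. The longest chain had 23 regions over 83.4 kb, at chr11:63973205-64056567. The next had 19 each, at chr11:64623133-64701674 and chr19:49510051-49568780. The remaining 3713 regions (38.9%) had no other compact shared region within 10 kb and are called isolated below; the other 5836 are called neighboured.

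Chromosome 19 held more compact shared regions than any other chromosome. It carried 1661 of them (17.4%), or 28.1 per Mb of the span between the outermost positions of the lists, 8.85 times the density over all chromosomes together. Chromosomes 22, 17 and 16 followed with 13.07, 13.05 and 8.98 per Mb. The lowest densities on autosomes were 0.604 per Mb on chromosome 18 and 0.706 on chromosome 13, and chromosomes X and Y held 99 and 3 regions. The 4 chromosomes with the most regions, 19, 17, 1 and 16, held 45.5% of them on 15.97% of the span. Folds varied little by comparison, with a median C-terminal fold of 5.49 on chromosome 19 and 4.04 on chromosome 18. Isolated regions made up 20.2% of those on chromosome 19 and 80.9% of those on chromosome 18. The places with most regions in 100 kb were chr11:63973205-64075196 with 26 and chr16:88751300-88850659 and chr19:622983-723538 with 23 each.

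A minority of compact shared regions carried an H1 peak. In wild-type replicate 1 it was 649 of 9549 (6.80%, Wilson interval 6.31 to 7.32), against 5.53% of all C-terminal peaks. Wild-type replicate 2 gave 624 (6.53%, 6.06 to 7.05) against 5.49%. Depleted replicate 1 gave 444 (4.65%, 4.25 to 5.09) against 3.76%, and depleted replicate 2 gave 193 (2.02%, 1.76 to 2.32) against 1.64%. The share was above that of all C-terminal peaks in each of the 4 lists, and the compact shared regions make up 67.1% of those peaks. An H1 peak in at least 1 list was present at 1040 regions (10.9%, against 9.02% of all C-terminal peaks), and 8509 had none.

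Fewer of them had an H1 peak in NuMA-depleted than in wild-type cells when the lists were used at their full length. The mean share in wild-type libraries was 6.67% ± 0.185 (SD, n = 2) and that in depleted libraries 3.34% ± 1.86 (SD, n = 2), a difference of 3.33 percentage points and a ratio of 2.00. Over all C-terminal peaks the mean shares were 5.51% and 2.70%, a ratio of 2.04, so the ratio was not particular to the compact shared regions. At the compact shared regions both depleted shares lay below both wild-type shares. Exchanging the library labels in all ways (exact permutation test, two-sided) gave p = 0.333, the smallest that 2 libraries against 2 allow. The difference was 4.64 points without depleted replicate 1 and 2.02 without depleted replicate 2. With each H1 list reduced to as many of its peaks of highest fold as the shortest list holds, the direction turned. The wild-type shares were then 2.08% and 1.56% and the depleted ones 2.65% and 2.02%, a difference of −0.513 points (exact permutation p = 0.667). Over all H1 peaks, 14.3% and 11.3% of the wild-type lists and 16.97% and 13.04% of the depleted lists lay at compact shared regions.

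Around compact shared regions, H1 summits were most frequent near the NuMA summit. For H1 peaks that overlapped a region, the median distance between H1 and C-terminal summit was 220 and 219 bp in wild-type replicates 1 and 2. It was 206.5 and 215 bp in the depleted ones. Between 83.0% and 84.5% of these H1 summits fell inside the region, depending on the list. Choosing peaks by overlap itself keeps their summits near the region, so these distances and shares are descriptions only. The counts that follow include H1 summits without that choice. Within 200 bp of the C-terminal summit there were 15.2, 14.7, 11.2 and 4.45 H1 summits per 1000 regions and 200 bp bin, in the order wild-type 1, wild-type 2, depleted 1 and depleted 2. At 4 to 5 kb there were 0.586, 0.733, 0.367 and 0.189, so the centre exceeded that distance 25.9, 20.1, 30.6 and 23.6 times. The H1 peaks at these regions had median folds close to those of other H1 peaks. They were 6.39, 6.16, 6.62 and 6.85, against 6.38, 6.14, 6.55 and 7.02 for the other peaks of the same lists.

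**Figure D3:**
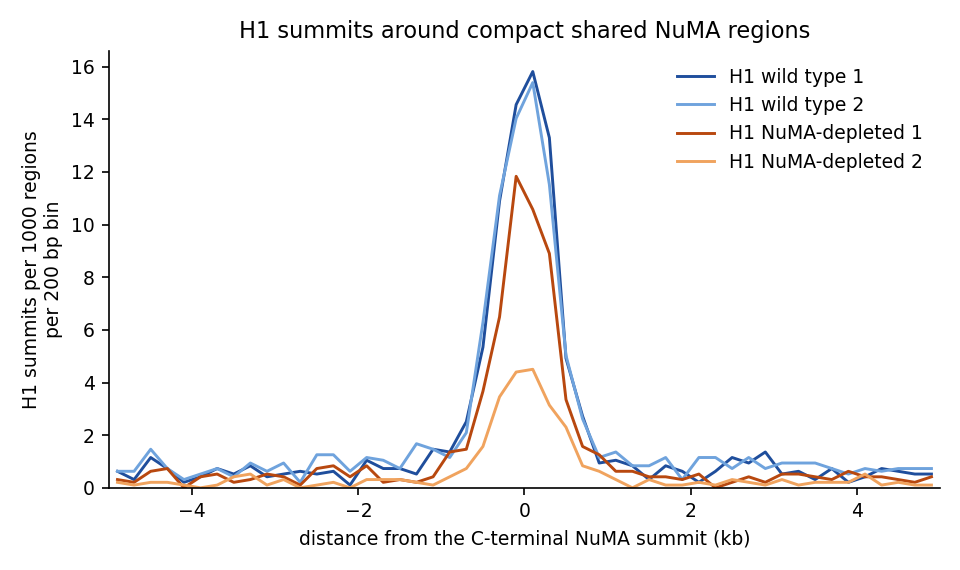
H1 summits per 1000 compact shared regions in each 200 bp bin (y axis) by distance from the C-terminal NuMA summit in kb (x axis), with 1 line per H1 library. All 4 lines peak at the NuMA summit, at 15.2, 14.7, 11.2 and 4.45 within 200 bp, and fall to 0.733 or less at 4 to 5 kb.

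Taken as whole sets, compact shared regions carried more H1 peaks than broad ones, and the size of the difference depended on how it was counted. Among regions with another C-terminal peak within 10 kb, the plain share was lower in compact than in broad regions in all lists but depleted replicate 2. As a plain share of regions, the ratio of compact to broad within a library was 1.86, 1.50, 1.27 and 2.86, or 1.79-fold. Per covered length, a measure that includes the width by which the sets were divided, compact regions had 77.1 and 74.2 H1 peaks per Mb in wild-type replicates 1 and 2 and 52.7 and 22.9 in the depleted ones. The broad shared regions had 12.9, 15.4, 12.9 and 2.51. The ratio per covered length was 5.95, 4.80, 4.07 and 9.15, a mean log2 ratio of 2.51 ± 0.51 (SD, n = 4) or 5.71-fold. It was above 1 in 4 of 4 libraries. Part of this ratio follows from the width rule, so a test of it cannot separate H1 from width, and no p is given for it. The plain share was also higher in 4 of 4 libraries. For that share the exact two-sided sign-flip test gave p = 0.125, the smallest that 4 libraries allow. Counted in a fixed window, as regions with an H1 summit within 500 bp of the C-terminal summit, 589, 573, 391 and 169 of 9549 compact and 24, 21, 18 and 4 of 849 broad regions had one, a 2.49-fold difference in share. Per covered length the log2 ratio was 1.48 with a width limit of 1000 bp and 3.85 with H1 lists of equal length.

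They also carried H1 more often than C-terminal peaks under the same width limit without an N-terminal peak. Those were narrower, with a median width of 564 bp against 767 bp, and had an H1 peak at 2.69% and 3.06% in wild-type replicates 1 and 2 and at 1.51% and 0.836% in the depleted ones. Within a library the compact shared share was 2.53, 2.14, 3.07 and 2.42 times as high, a mean log2 ratio of 1.33 ± 0.22 (SD, n = 4) or 2.52-fold, higher in 4 of 4 libraries (exact two-sided sign-flip p = 0.125, the smallest possible). Per covered length the ratios were 1.82, 1.55, 2.22 and 1.75, or 1.82-fold. The C-terminal-only peaks rested on fewer fragments, with medians of 13 at the summit and 0.692 in the background, although their median fold of 6.77 was above the 4.95 of the shared regions. The part of this difference in signal in the H1 comparison was not tested.

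**Figure D4:**
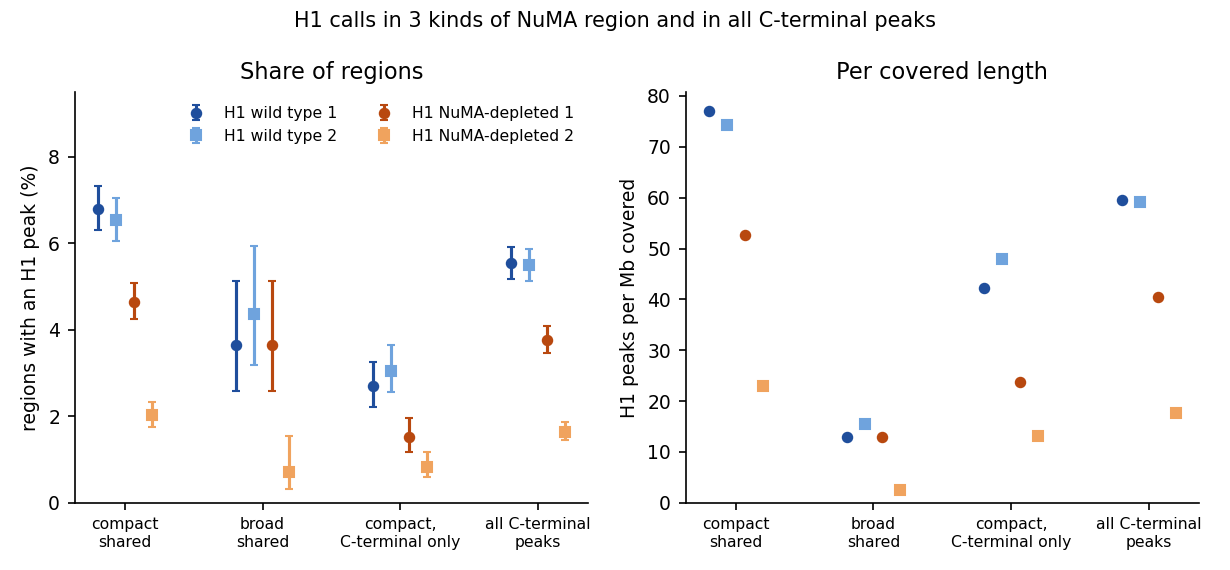
Percentage of regions with an H1 peak (left, with 95% Wilson intervals) and H1 peaks per Mb covered (right) for compact shared, broad shared and C-terminal-only compact regions and for all C-terminal peaks, with 1 point per H1 library. Compact shared regions are highest in all 4 libraries on both axes. In wild-type replicate 1 the share is 6.80% against 3.65% in broad regions. Per Mb the values are 77.1 against 12.9 H1 peaks, a measure that includes the width by which the sets were divided.

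The H1 calls were concentrated at isolated regions. Among the 3713 isolated regions 13.8% had an H1 peak in wild-type replicate 1 (Wilson interval 12.7 to 14.9) and 12.3% in wild-type replicate 2. The depleted replicates gave 9.21% and 4.12%. Among the 5836 neighboured regions the shares were 2.36% (2.01 to 2.79), 2.88%, 1.75% and 0.685%. The ratios were 5.82, 4.27, 5.27 and 6.01, a mean log2 ratio of 2.40 ± 0.22 (SD, n = 4) or 5.30-fold, higher in 4 of 4 libraries (exact two-sided sign-flip p = 0.125, the smallest possible). With H1 lists of equal length the log2 ratio was 3.32. The 10 kb distance that divides these regions was chosen after the values had been seen.

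The share with H1 increased step by step with the distance to the nearest other compact shared region. In wild-type replicate 1 it was 1.41% up to 2 kb, 2.02% from 2 to 5 kb, 3.81% from 5 to 10 kb and 7.16% from 10 to 30 kb. It went on to 14.6% from 30 to 100 kb, 19.3% from 100 to 300 kb, 25.5% from 300 to 1000 kb and 31.9% beyond 1000 kb, where 191 regions lay. Beyond 1000 kb the other libraries gave 24.6%, 24.1% and 14.1%, against 1.97%, 1.54% and 0.491% up to 2 kb. Depleted replicates 1 and 2 went slightly down over the first step, to 1.46% and 0.395% from 2 to 5 kb, before going up. The median C-terminal fold was 4.80 up to 2 kb and 5.11 from 10 to 30 kb. Over the later bins it went down to 4.93, 4.56, 4.38 and, beyond 1000 kb, 4.13. The part of this decline in the H1 share was not tested.

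**Figure D5:**
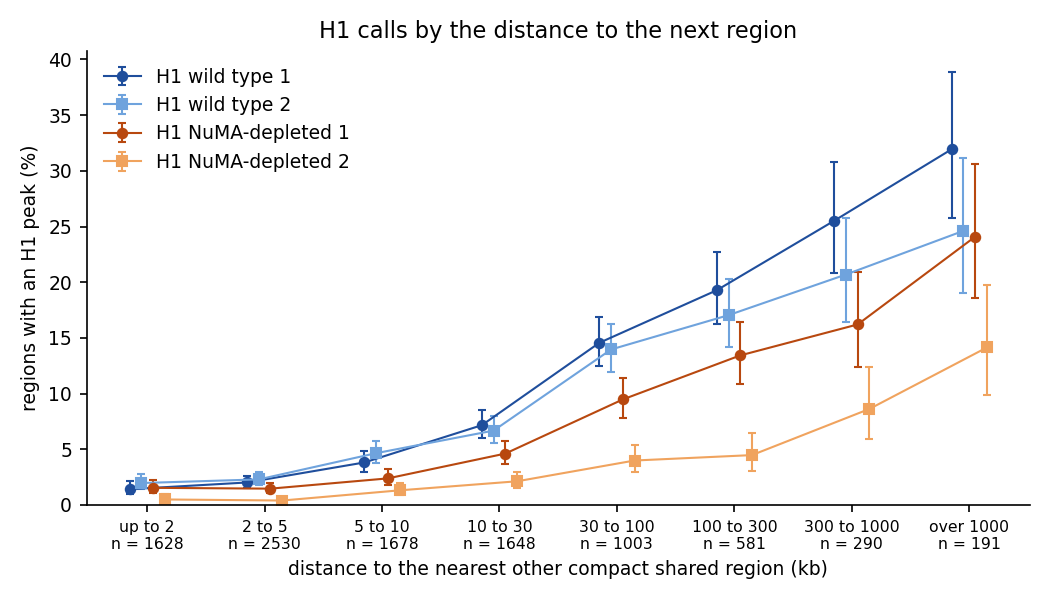
Percentage of compact shared regions with an H1 peak (y axis, with 95% Wilson intervals) by distance to the nearest other compact shared region in kb (x axis), with the number of regions under each bin and 1 line per H1 library. In wild-type replicate 1 the share is 1.41% up to 2 kb and 31.9% beyond 1000 kb, and the other 3 libraries end between 14.1% and 24.6%.

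Isolated and neighboured regions had much the same NuMA signal. The median C-terminal fold was 4.87 in isolated and 5.01 in neighboured regions, the median N-terminal fold 5.89 and 5.95, the median width 733 and 792 bp, and the median local background 5.62 fragments in both. The N-terminal peak was 2000 bp or wider at 4.17% of isolated and 19.6% of neighboured regions. With regions under such N-terminal peaks left out, the H1 shares were 14.2%, 12.5%, 9.42% and 4.10% in isolated and 2.58%, 3.26%, 1.88% and 0.768% in neighboured regions. On chromosome 19 alone they were 7.16%, 5.97%, 4.18% and 1.49% against 1.73%, 2.34%, 1.58% and 0.528%. The order of the groups held in each library in both cases, and on chromosome 19 the ratios were smaller, from 2.55 to 4.13.

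The order of isolated and neighboured regions in H1 changed with the distance from the summit. At 5 to 50 kb from the C-terminal summit there were 2.86, 3.59, 1.73 and 0.769 H1 summits per Mb around isolated regions and 3.66, 4.93, 2.25 and 1.13 around neighboured ones. The length was added up over regions, and the flanks of neighboured regions overlap, so the surroundings of the 2 groups are not fully comparable. A regional difference in H1 was not tested. Within 500 bp the order was the opposite, with 126, 114, 82.1 and 36.6 per Mb at isolated and 21.1, 25.7, 14.7 and 5.65 at neighboured regions. The H1 background under the called peaks had medians of 1.97, 1.83, 1.44 and 1.11 fragments at isolated regions and 2.38, 2.54, 1.81 and 1.27 at neighboured ones. A higher local background asks for more fragments before a peak is called, and its part in the result was not tested.

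Isolation went with more H1 in the C-terminal-only peaks as well. C-terminal-only compact peaks with no other C-terminal peak within 10 kb (1829) had H1 at 3.94%, 4.43%, 2.35% and 1.26%, and those with one (2000) at 1.55%, 1.80%, 0.75% and 0.45%. Compact shared regions with no C-terminal peak of any kind within 10 kb (2924) had H1 at 15.8%, 14.0%, 10.4% and 4.72%. Restricted to such isolated peaks, the compact shared regions exceeded the C-terminal-only ones by a mean log2 ratio of 1.93 in place of 1.33. Only 81 broad shared regions were isolated in this sense, with 4, 5, 6 and 0 H1 calls (4.94%, 6.17% and 7.41% in the first 3 lists), and 0 of 81 allows a share of up to 3.70%. The 768 other broad regions had H1 at 3.52%, 4.17%, 3.26% and 0.781%, so the order was not the same in all 4 lists. The 6625 other compact shared regions had H1 at 2.81%, 3.26%, 2.13% and 0.830%. These shares were below those of the 768 broad regions in all lists but depleted replicate 2.

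The difference between wild-type and depleted libraries had the same direction in isolated and neighboured regions. The mean share of isolated regions with H1 was 13.02% ± 1.05 (SD, n = 2) for the wild-type libraries and 6.67% ± 3.60 (SD, n = 2) for the depleted ones. In neighboured regions it was 2.62% ± 0.363 and 1.22% ± 0.751 (SD, n = 2 each). The exact permutation test gave p = 0.333 in both, the smallest possible, and whether the 2 ratios of 1.95 and 2.15 differ was not tested.

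Other properties of the NuMA peaks moved with the H1 share too. Regions with an N-terminal peak of 2000 bp or more (1301) had H1 at 1.84%, 2.00%, 1.61% and 0.846%, and the others (8248) at 7.58%, 7.25%, 5.13% and 2.21%. Of the 5679 regions with summits within 100 bp, 432, 412, 284 and 118 had an H1 peak (7.61% in wild-type replicate 1). Of the 1447 with summits over 500 bp apart, 38, 39, 26 and 9 had one (2.63%). By quartile of summit distance the wild-type replicate 1 shares were 7.83%, 7.27%, 7.83% and 4.24%, with no steady trend. The farthest quartile had the lowest share in all 4 lists. By the lower of the 2 NuMA folds, regions of low fold had H1 more often than those of high fold. In the lowest quartile of the lower fold the shares were 7.998%, 7.96%, 5.53% and 3.06%, and in the highest 6.21%, 5.62%, 4.20% and 1.22%. By the N-terminal fold the order differed between lists. The shares were 6.44%, 6.61%, 4.81% and 2.68% in its lowest and 6.91%, 6.12%, 4.82% and 1.47% in its highest quartile. Among neighboured regions the order by the lower fold differed between lists too, with 1.98% in the lowest and 2.71% in the highest quartile in wild-type replicate 1.

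The chromosomes densest in compact shared regions had small H1 shares. On the 4 densest chromosomes (19, 22, 17 and 16), which held 3988 regions, H1 was called at 3.51%, 3.89%, 2.41% and 1.08%, and on all others at 9.15%, 8.43%, 6.26% and 2.70%. In the wild-type replicates the shares were 2.83% and 3.07% on chromosome 19. On the sparsest autosomes they were 17.02% in both for chromosome 18 and 7.46% and 8.96% for chromosome 13, while chromosome 14, with 3.14 regions per Mb, had 17.3% and 16.6%. Chromosome X, also sparse with 99 regions or 0.638 per Mb, had small shares of 4.04% and 2.02%. Across the 23 chromosomes with at least 40 regions Spearman's rho between regions per Mb and the H1 share was −0.64, −0.60, −0.57 and −0.31 in the 4 libraries. These chromosome values come from the same lists and describe them without a test. Of the 3 places with most regions in 100 kb, the ones on chromosomes 11 and 19 had no region with an H1 call, which allows shares of up to 11.5% and 13.04%, and the one on chromosome 16 had 1.

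Few compact shared regions had an H1 peak in every list. All 4 lists held a peak at 81 regions (0.848%, against 0.758% of all C-terminal peaks), both wild-type lists at 375 (3.93%, against 3.23%) and both depleted lists at 109 (1.14%, against 0.969%). Among the 375 with a peak in both wild-type lists, 81 (21.6%) were called in both depleted lists, 162 (43.2%) in 1 and 132 (35.2%) in neither. Those 132 were 1.38% of the compact shared regions, against 1.16% of all C-terminal peaks. The reverse pattern, both depleted lists and neither wild-type list, was found at 6 regions (0.0628%, against 0.0421%). Depleted replicate 1 held 58.4% and depleted replicate 2 held 28% of the 375, so these counts depend on which depleted list is read.

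The regions called in all 4 lists were mostly isolated, 75 of 81 (92.6%), as were 102 of the 132 called in both wild-type lists only (77.3%), against 2951 of the 8509 without any H1 call (34.7%). Their NuMA folds were modest, with medians of 4.13 for the C terminus and 5.25 for the N terminus. The strongest in H1 was chr6:7389653-7390355. Its H1 folds were 11.05, 9.79, 9.64 and 11.4 in the order wild-type 1, wild-type 2, depleted 1 and depleted 2, and its NuMA folds were 3.47 and 2.62. In the same order, the H1 folds were 10.1, 9.73, 10.4 and 9.26 at chr7:107531513-107532040 and 10.4, 9.66, 10.5 and 9.10 at chr7:33102172-33102779. The region chr17:41466022-41466790 had H1 folds of 8.46, 11.2, 10.5 and 9.73 and NuMA folds of 5.21 and 5.60, on 227 fragments at the C-terminal summit. The highest NuMA folds among the 10 strongest were 8.93 and 9.44, at chr11:125461714-125463013, where the H1 folds were 8.01, 9.18, 7.95 and 9.78. The other 5 were chr2:39102639-39103225, chr6:5892094-5892622, chr8:117778685-117779173, chr10:27793214-27793727 and chr6:153304390-153305055, with H1 folds from 7.84 to 11.2. The folds of wild-type and depleted lists overlapped at these regions, and as folds of different lists they are given side by side only.

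Among the regions with H1 in both wild-type lists and neither depleted list, chr8:67578893-67579434 had H1 folds of 8.92 and 9.48, with NuMA folds of 5.68 and 8.87 and summits 2 bp apart. The region chr15:90701273-90702018 had H1 folds of 8.29 and 8.34 and a C-terminal fold of 10.8. The region chr2:170550833-170551277 had H1 folds of 8.82 and 9.60, chr3:150320967-150321480 had 9.07 and 8.83, and chr16:53737453-53738062 had 7.98 and 8.31. These 5 were picked for their high H1 folds; the median over all 132 was 6.25 and 6.18, against 6.38 and 6.14 for the H1 peaks of those lists outside the compact shared regions. In the reverse pattern the strongest was chr22:41864144-41865520, with H1 folds of 9.52 and 7.28 in the depleted lists and NuMA folds of 9.26 and 10.7. It was followed by chr9:127962544-127963171 (7.61 and 6.82), chr6:20401653-20402242 (6.94 and 6.41), chr19:58987206-58987845 (6.45 and 6.38) and chr1:22109080-22109986 (6.80 and 5.74). A missing call means only that no peak passed the authors' limit in that list.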

How the data were processed

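CUT&Tag peak lists of 6 libraries were analysed. The authors worked on hg19 with MACS2, Bowtie2, Picard and Trim Galore, per the submitters' processing notes. Which tool did what, and in which version, is not given in the sources used here. Peaks were listed per library, and the peak names carry a q limit of 0.001. The deposited score was a whole number made from the −log10 q and was not used further. The deposited fold is the authors' ratio of signal to background at the summit; whether the immunoglobulin G library served as the background of the NuMA calls is not given in the sources used here, and the recovered NuMA background shares this doubt. The deposited −log10 p and −log10 q are the authors' values per peak.

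Peaks on chromosomes 1 to 22, X and Y were kept, and coordinates are 1-based. Shared means 1 bp of overlap; where a region overlapped 2 N-terminal peaks, the one with the nearer summit was used. The members, the comparison sets and the rules for named regions were chosen with earlier results of these data known. Regions were named by fixed ranks: the 12 highest by the lower NuMA fold, the 10 strongest with H1 in all 4 lists, 5 each called in 1 H1 group only, the 3 narrowest, 3 on each side of the width limit, 3 per direction of rank gap and the 3 densest places. Fragments at a summit and local background were recovered from fold and −log10 p, taking the p as a Poisson tail; in the 6 lists 98.9% to 100% of peaks gave counts within 0.02 of a whole number. The lists give no read totals. Recovered depth per kb was 3.62 in both wild-type and 2.12 in both depleted H1 libraries, with 1.09 in the C-terminal NuMA library and 1.80 in the N-terminal one.

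H1 shares were compared over libraries with exact permutation and sign-flip tests, since regions are not replicates. Wilson intervals (95%) and the limit for a count of 0 (3 counts) cover counting error only. Scripts were tested on simulated data. The software was Python 3.11.15 with pandas 2.3.3, scipy 1.17.1, numpy 2.4.6 and, for the plots, matplotlib 3.10.9. Alternatives were the overlap rule, the width limit, stricter q values, H1 lists of equal length, other definitions of an H1 call, chromosome subsets, neighbour distances, leaving out each H1 library and a replicate block. No sequence or gene is given for a region, because no hg19 genome or annotation was used here.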

Additional observations from a re-analysis of the deposited data

How the results depend on the processing

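Over 8 results and 84 alternative values, every comparison between groups or sets kept its direction in all but 1 of them. Compact over broad was taken per covered length, which includes the width that divided the sets, in every setting but the 500 bp window. Not among these values was the plain share of regions with another C-terminal peak within 10 kb. That share was lower in compact than in broad regions in all lists but depleted replicate 2. The p-values show nothing about stability, because no setting could reach 0.05 with so few libraries. The number of regions was 9549 and became 7142 with 50% reciprocal overlap, 6604 with a width limit of 1000 bp and 10166 with 3000 bp. The wild-type minus depleted H1 difference of 3.33 points turned to −0.513 (exact permutation p = 0.667) with H1 lists of equal length. The share of regions with summits within 100 bp went from 59.5% to 68.0% with 50% reciprocal overlap, 63.6% with a width limit of 1000 bp and 61.5% with a NuMA −log10 q of at least 5. The share with the next region within 10 kb went from 61.1% to 51.5%, 49.2% and 59.5% under the same settings and to 63.8% with a limit of 3000 bp, where fewer or more regions are counted. Leaving out 1 H1 library gave 2.02 to 4.64 points for the group difference. The log2 ratios then ranged from 2.29 to 2.68 for compact over broad, 1.24 to 1.41 for compact shared over C-terminal-only and 2.34 to 2.51 for isolated over neighboured. Over all settings they ranged more widely. Compact over broad was 2.51 per covered length, but 1.48 with a width limit of 1000 bp, 1.32 as a share within 500 bp and 3.85 with H1 lists of equal length. Isolated over neighboured was 2.40, from 2.17 with reciprocal overlap to 3.32 with equal lists. Compact shared over C-terminal-only was 1.33, from 1.13 with equal lists to 1.93 among isolated peaks. With the replicate number as a block, the pairs differed by 2.15 and 4.51 points (mean 3.33, exact sign-flip p = 0.5). The deviations of same-numbered libraries over 594 H1 regions in all 4 lists had a correlation of 0.029. The labels do not say whether same-numbered libraries were prepared together, and this correlation cannot decide it. Compact against broad regions without a C-terminal peak within 10 kb gave no value, because depleted replicate 2 had 0 calls in the latter. The settings for the isolated regions, the 500 bp window and the chromosome weighting were added after the data were seen.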
